A study of Homo sapiens with 12 samples.

Results

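The hairpins examined here, 5 in number, sit in introns of protein-coding genes and leave both of their arms in the cell. They are miR-423, miR-151a, miR-28, miR-339 and miR-140 and give 10 mature miRNAs. They were selected from the SLAMseq tables because both arms had many reads and the hairpin lies in a host gene's intron. They are 10 of the 2652 mature miRNAs listed in every table, and 10 of the 143 in the Initial miRNA Dataset, which holds miRNAs over 100 CPM in all libraries that MirGeneDB also lists. All 10 passed that filter. The read levels below therefore describe the selection and are not a finding. The T>C conversion rates and the differences between conditions are not part of that rule. The members were, however, chosen with earlier results of these data known, so that these values are not fully independent of the choice.

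The cells were Huh7, a human hepatocellular carcinoma line, kept for 4 h in 1 of 3 conditions with 4 libraries each. Control cells received DMSO without 4SU, DMSO cells received DMSO and 500 µM 4SU, and PlaB cells received the SF3B1 inhibitor pladienolide B and 500 µM 4SU. Each library is from 1 of 4 independent experiments on this single line. The replicate number was taken to name the experiment, which the labels do not state. For PlaB the sample labels give 500 µM, which is also the dose of 4SU. The study's methods give PlaB at 1 µM unless otherwise indicated, so that the labelled concentration is uncertain here.

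A primary miRNA transcript is cut by the Microprocessor while it is still being transcribed, and Dicer then releases a duplex of the 5p and 3p arms. Argonaute keeps one arm and the other is usually lost, so that arms made together can end up at different levels. In SLAMseq, 4SU taken up into new RNA is read as C in place of T, and the T>C conversion rate (the share of sequenced T positions that read as C) follows the share of a mature miRNA made during labelling. A low rate goes with a large unlabelled pool beside the new molecules.

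The mature sequences are shown because the uridines set how many positions can be converted and where they lie. They are the RefSeq sequences on GRCh38.p14 for 7 of the 10 members, with the seed (bases 2 to 8) in capitals.
hsa-miR-423-5p: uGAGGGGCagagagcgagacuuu
hsa-miR-423-3p: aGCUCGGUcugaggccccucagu
hsa-miR-28-3p: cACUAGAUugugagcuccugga
hsa-miR-339-5p: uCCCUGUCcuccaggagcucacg
hsa-miR-339-3p: uGAGCGCCucgacgacagagccg
hsa-miR-140-5p: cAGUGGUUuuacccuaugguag
hsa-miR-140-3p: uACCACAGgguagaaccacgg
The 7 seeds are 7 different sequences, so that no pair of these arms shares a seed. The number of uridines equals the number of T positions in the deposited tables for all 7. It runs from 2 in miR-339-3p (bases 1 and 9) and miR-140-3p (bases 1 and 11) to 8 in miR-140-5p. In miR-423-5p, 1 of the 4 uridines is the first base and the other 3 are the last bases (21, 22 and 23).

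The libraries held between 1522210 and 3880241 reads on miRNAs, with 1667668 to 2393680 in Control, 1968612 to 3880241 in DMSO and 1522210 to 1979696 in PlaB. The 10 members took between 2.83% and 3.96% of them. miR-122-5p, the defining miRNA of hepatocytes, was at 55353 to 105331 CPM. The 9 miRNAs listed as markers of blood, neurons and muscle summed to 12.5 to 20.1 CPM in Control, 24.1 to 69.1 CPM in DMSO and 5.91 to 23.2 CPM in PlaB, with miR-206 at 0 in every library. Their part in the results was not tested.

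4SU labelling was detectable in both arms of 4 hairpins and in 1 arm of miR-140. In the test across the Initial miRNA Dataset, 9 of the 10 members had a higher T>C conversion rate in DMSO than in Control (edgeR's quasi-likelihood test, adjusted p under 0.05 by Benjamini-Hochberg), where 83.2% of the 143 miRNAs were called. The same 9 had all 4 DMSO libraries above all 4 Control libraries, which held for 70.6% of the 143. The median log2 difference was 3.33 over the members and 3.16 over all 143. The exception was miR-140-3p. Of the 9 calls that of miR-28-3p was the weakest (edgeR, adjusted p = 0.0290), and it passed in 8 of the 12 fits without 1 library.

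Low T>C conversion rates were not shared by all members. According to the study, its method cannot directly compare the synthesis rates of different miRNAs. The ranks below therefore describe conversion rates only, and stability was not tested. In DMSO, 7 members lay below the median rate of the dataset (0.187%) and 3 lay above it. miR-339-3p ranked 5 of 143, miR-339-5p ranked 19 and miR-423-5p ranked 41, while miR-151a-5p ranked 121 and miR-140-3p ranked 140. The last rank is a tie at 0, as 4 of the 143 had no conversion in any library. The plot of T>C conversion rates by library shows this spread.

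**Figure D1:**
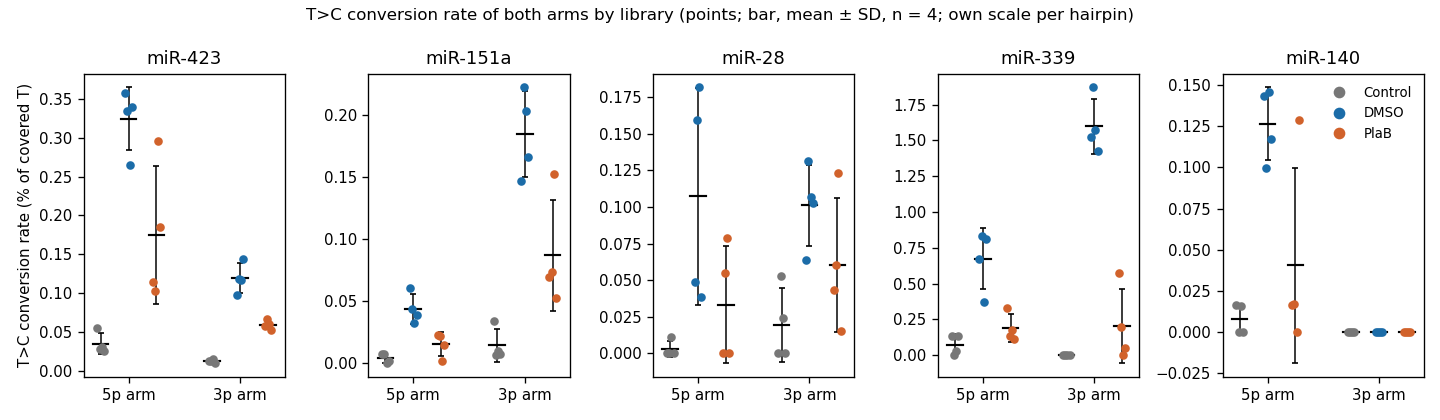
T>C conversion rate (percent of covered T positions, own linear scale for each hairpin) of the 5p and 3p arms in the Control, DMSO and PlaB libraries. Points are libraries, and the bar and whisker are the mean and SD of 4 libraries. miR-339-3p reached 1.42% to 1.87% in DMSO, whereas miR-140-3p stayed at 0 in all 12 libraries.

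PlaB lowered the T>C conversion rate of 5 of the 10 members relative to DMSO and raised none, where 48.3% of the 143 miRNAs were called. The 5 were both arms of miR-339, both arms of miR-151a and miR-423-3p. The median log2 difference was -1.32 over the members and -1.23 over all 143, so that the members moved about as far as the dataset. In 4 members the PlaB and DMSO libraries did not overlap (miR-423-3p, miR-151a-5p, miR-339-3p and miR-339-5p), which held for 46.2% of the 143. The 4 members with conversions that did not pass (miR-423-5p, miR-28-3p, miR-28-5p and miR-140-5p) had fitted differences between -0.71 and -1.57. Without DMSO replicate 2, and likewise without DMSO replicates 1 and 2, 3 members passed instead of 5.

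**Figure D2:**
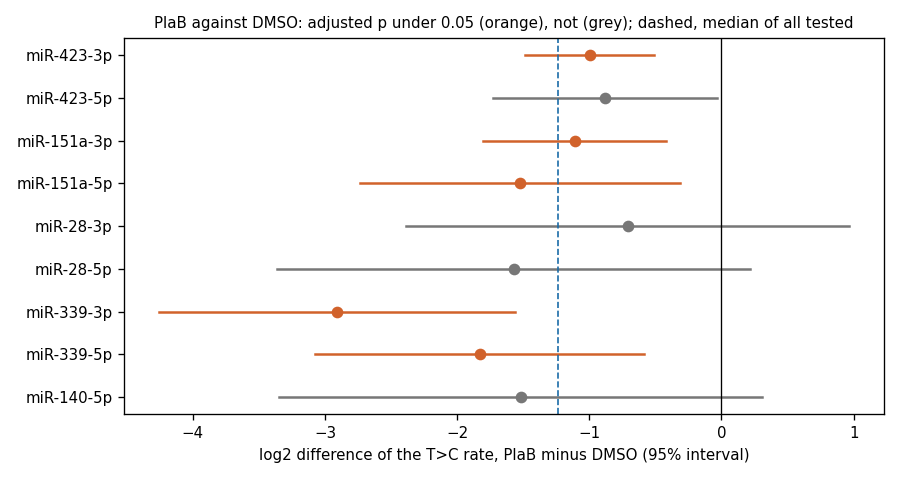
Fitted log2 difference of the T>C conversion rate, PlaB minus DMSO, with 95% intervals, for the 9 members with a conversion. Orange marks an adjusted p under 0.05, and the dashed line is the median of the 143 miRNAs (-1.23). The widest intervals belong to miR-28 and miR-140-5p, and that of miR-339-3p (-4.26 to -1.56) lies furthest to the left.

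Rates in PlaB remained above the Control background in 6 members (both arms of miR-423 and miR-151a, miR-28-5p and miR-339-3p), where 54.5% of the 143 miRNAs were called. Their log2 differences had a median of 2.23 over the members and 1.89 over the dataset. The calls of miR-151a-5p (adjusted p = 0.0271) and miR-28-5p (adjusted p = 0.0357) were the weakest, and with only the 8 libraries compared both were lost (0.0718 and 0.0712). The former was also lost without Control replicate 3 (0.0697), Control replicate 4 (0.120), PlaB replicate 1 (0.0628) or PlaB replicate 2 (0.0874). The latter was also lost with the replicate block (0.0718) and without Control replicate 1 (0.0559), Control replicate 2 (0.0917), Control replicate 4 (0.0790), PlaB replicate 2 (0.0898) or PlaB replicate 3 (0.147).

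The read levels of the members did not pass the test in either comparison. By edgeR, 0 of the 10 changed between Control and DMSO, where 4.2% of the 143 miRNAs were called, and 1 had an unadjusted p under 0.05. Between DMSO and PlaB 0 of the 10 changed, where 0.699% were called, and 0 had an unadjusted p under 0.05. DESeq2 also called 0 in both. In bulk samples such as these, fewer cells of a kind and less RNA per cell cannot be told apart. The fitted log2 differences of the members ran from -0.29 (miR-339-3p) to 0.23 (miR-423-5p) for DMSO against Control and from -0.09 (miR-140-5p) to 0.37 (miR-151a-5p) for PlaB against DMSO.

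**Figure D3:**
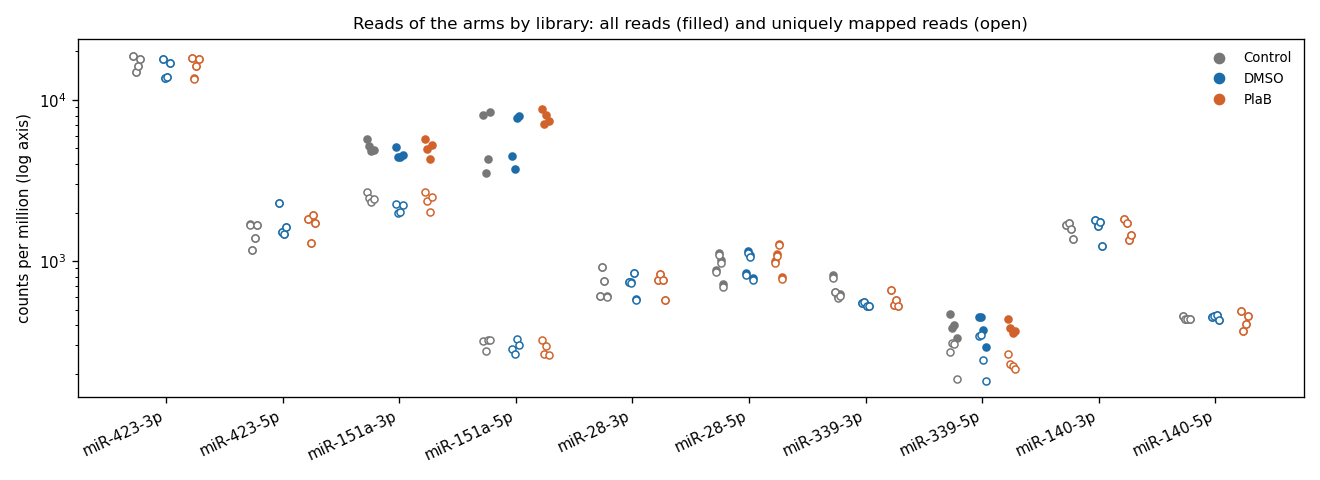
Reads of each arm in the 12 libraries, in CPM on a log axis, for Control, DMSO and PlaB. Filled points are all reads and open points are the uniquely mapped ones. The filled and open points nearly coincide in 7 members. In miR-151a-5p the open points lie far below the filled ones, and in miR-151a-3p and miR-339-5p somewhat below.

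The arms of 1 hairpin were then compared with each other in every library, in a fit over the 23 hairpins that have both arms in the Initial miRNA Dataset. In DMSO the arms differed in T>C conversion rate in 4 of the 5 hairpins, where 73.9% of the 23 were called. In PlaB they differed in 3 of the 5, where 65.2% were called. The change of PlaB against DMSO did not pass as different between arms in any of the 5 by edgeR, where 4.35% were called. The unadjusted p was under 0.05 in 0. For miR-140 this fit could not decide, since its 3p arm has no conversion in any library (SE 12238.7 on the log2 scale). limma on the log2 rates called 1, miR-140. It adds a small constant to every count, which alone gives the empty 3p arm a rate, so that no conclusion is drawn from this call.

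The ratio of 3p to 5p reads was also compared between conditions. Between Control and DMSO it passed in 0 of the 5 hairpins by edgeR, where 34.8% of the 23 were called. The unadjusted p was under 0.05 in 1 (miR-423), and limma called 0. Between DMSO and PlaB it passed in 0 of the 5, where 0% were called, with 0 unadjusted p under 0.05 and 0 calls by limma.

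miR-423 showed the most unequal arms in reads. Its hairpin lies at chr17:30117079-30117172 on the + strand of GRCh38, within NSRP1, which encodes a nuclear speckle protein that regulates splicing. In the reference transcript of GENCODE it is in intron 1 of 6, which is 1216 bases long, and 215 bases after the upstream exon. GENCODE places the hairpin in an intron of 11 NSRP1 transcripts and within an exon of 3 others. The location is thus intronic in most annotated transcripts but not in all.

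miR-423-3p was at 18832, 14929, 16351 and 17902 CPM in the 4 Control libraries, at 17839, 13656, 13886 and 17040 CPM in DMSO, and at 18097, 13591, 16315 and 17970 CPM in PlaB. miR-423-5p was at 1165 to 1686 CPM in Control, 1477 to 2297 in DMSO and 1303 to 1918 in PlaB. The 3p arm thus had 7.77 to 12.8 times the reads of the 5p arm. That ratio was 11.6 ± 0.934 in Control (SD, n = 4) and 9.18 ± 1.13 in DMSO, with every DMSO library below every Control library. The difference in the ratio was -0.34 ± 0.14 on the log2 scale (SE) and did not pass the test (edgeR, adjusted p = 0.0665). It passed with the replicate block (adjusted p = 0.0318) and without DMSO replicate 4 (adjusted p = 0.0386).

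The order of the arms was reversed in labelling. In the 4 DMSO libraries the T>C conversion rate of miR-423-5p was 0.358%, 0.334%, 0.265% and 0.340%, and that of miR-423-3p was 0.0976%, 0.118%, 0.117% and 0.144%. The less abundant arm was thus the more labelled one in each library, by 2.72-fold on the means (log2 difference of 3p against 5p -1.46 ± 0.34 (SE), adjusted p = 4.50e-05). The same held in the 4 PlaB libraries, by 2.93-fold (log2 difference -1.49 ± 0.38, adjusted p = 0.000259). Between Control and DMSO, the mean rates rose 9.15-fold in the 5p arm and 8.94-fold in the 3p arm.

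Both arms of miR-423 had a lower mean rate in PlaB than in DMSO, of which 1 passed the test. miR-423-3p fell from 0.119% ± 0.0191 in DMSO to 0.0597% ± 0.00564 in PlaB (SD, n = 4), with PlaB libraries at 0.0577%, 0.0667%, 0.0610% and 0.0533%. The log2 difference was -0.997 ± 0.243 (SE, adjusted p = 0.000639). miR-423-5p had 0.114%, 0.103%, 0.296% and 0.186% in PlaB, so that replicate 3 lay within the range of DMSO. Its log2 difference of -0.88 ± 0.42 did not pass (adjusted p = 0.0807), and it passed without PlaB replicate 3 (adjusted p = 0.0250), with DESeq2 (0.0441) and with the 8 libraries of the comparison alone (0.0393). The difference between the arms in this change was -0.03 (95% interval -0.97 to 0.92).

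On the antisense side of MIR423 lies MIR3184. miR-3184-5p had 5 reads in all 12 libraries together and miR-3184-3p had 0.

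miR-151a held the pair of arms whose read levels depend most on multi-mapping. PTK2, its host, encodes focal adhesion kinase, and the hairpin is in intron 25 of 35 of the reference transcript (17541 bases). All 17 annotated transcripts that span it have it in an intron. Reads that map to several places made up 50.1% to 55.9% of miR-151a-3p and 92.2% to 96.5% of miR-151a-5p. For miR-151b, whose sequence is nearly that of miR-151a-5p, the tables list 43.3 to 84.7 CPM.

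Total reads put miR-151a-5p at 8120, 3545, 4315 and 8475 CPM in Control, at 4490, 3713, 7717 and 7937 CPM in DMSO, and at 8775, 7101, 8061 and 7395 CPM in PlaB. Control replicates 2 and 3 and DMSO replicates 1 and 2 were low, and the other 8 libraries were high. The same 4 libraries had the lowest multi-mapping shares of miR-339-5p (20.04% to 23.9%, against 34.6% to 44.1% in the others). Uniquely mapped reads of miR-151a-5p were at 261 to 329 CPM over all 12 libraries, without this split.

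The choice of reads also sets which arm is ahead. With all reads, the 3p to 5p ratio ran from 0.531 to 1.46, whereas with uniquely mapped reads it ran from 6.13 to 9.58, and miR-151a-3p was ahead in all 12 libraries. miR-151a-3p itself was steadier, at 4828 to 5698 CPM in Control, 4408 to 5124 in DMSO and 4281 to 5704 in PlaB. Neither arm passed the test of read counts in either comparison, with all reads or with unique ones.

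Labelling separated the arms of miR-151a clearly. In DMSO, miR-151a-3p had a T>C conversion rate of 0.147%, 0.223%, 0.204% and 0.167%, and miR-151a-5p one of 0.0604%, 0.0432%, 0.0321% and 0.0386%. The 3p arm was higher in 4 of 4 libraries, by 4.25-fold on the means (log2 difference 2.08 ± 0.39 (SE), adjusted p = 5.72e-07). In PlaB it was higher in 4 of 4 libraries as well, by 5.80-fold (2.45 ± 0.45, adjusted p = 5.12e-07). Without PlaB replicate 3 the fold was 3.34. Conversions in the tables include those of multi-mapping reads, and how the rate of unique reads alone compares was not tested.

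Under PlaB both arms of miR-151a fell. miR-151a-3p had 0.0691%, 0.0733%, 0.153% and 0.0522% in PlaB, of which only replicate 3 reached the range of DMSO, and its log2 difference was -1.11 ± 0.34 (SE, adjusted p = 0.00683). miR-151a-5p had 0.0226%, 0.0215%, 0.00156% and 0.0142%, with 1 to 15 conversions in a library. All 4 lay below DMSO, and the log2 difference was -1.53 ± 0.60 (adjusted p = 0.0324). This call did not pass without DMSO replicate 1 (0.124), DMSO replicate 2 (0.0540), PlaB replicate 3 (0.108) or PlaB replicate 4 (0.0592), without DMSO replicates 1 and 2 (0.235), or without the filter on low counts (0.0616). DMSO replicates 1 and 2 were among the libraries with low reads of miR-151a-5p, and no PlaB library was. The part of that split in the fall of miR-151a-5p was not tested.

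miR-28 had arms at similar read levels. It lies at chr3:188688781-188688866 on the + strand, in the 98422 bases of intron 7 of 11 of LPP, a LIM domain protein of cell adhesion sites, and in an intron of all 8 transcripts that span it. miR-28-5p was at 716 to 1118 CPM in Control, 790 to 1150 in DMSO and 795 to 1274 in PlaB. miR-28-3p was at 604 to 922, 579 to 845 and 573 to 834 CPM. The 3p arm had fewer reads in all 12 libraries, at 0.600 to 0.879 of the 5p arm.

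The arms of miR-28 were not told apart by labelling. In DMSO, miR-28-5p had T>C conversion rates of 0.0489%, 0.159%, 0.182% and 0.0386%, and miR-28-3p rates of 0.0637%, 0.131%, 0.107% and 0.102%. Each arm was ahead in 2 of the 4 libraries, and the log2 difference was -0.01 (95% interval -1.24 to 1.23, adjusted p = 0.992). The interval leaves room for a difference of more than 2-fold either way. Only 61 and 48 conversions stand behind these 4 libraries for the 5p and 3p arm.

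In Control, miR-28-3p had 0, 7, 2 and 0 conversions and miR-28-5p had 0, 0, 1 and 0. The mean rate rose 39.3-fold from Control to DMSO in the 5p arm, where the Control mean rests on 1 conversion, and 5.24-fold in the 3p arm. The 3p call (log2 difference 2.12 ± 0.91 (SE), adjusted p = 0.0290) was lost without Control replicate 1 (0.0700), Control replicate 4 (0.0827), DMSO replicate 2 (0.0759) or DMSO replicate 3 (0.0509), and without DMSO replicates 1 and 2 together (0.0847).

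PlaB libraries of miR-28 overlapped those of DMSO in both arms. miR-28-5p had 0%, 0.0546%, 0.0788% and 0%, and miR-28-3p had 0.0432%, 0.0605%, 0.123% and 0.0152%. The log2 differences were -1.57 for the 5p arm (95% interval -3.36 to 0.22, adjusted p = 0.141) and -0.71 for the 3p arm (-2.39 to 0.97, adjusted p = 0.506). A decrease of the size of the dataset's median lies within both intervals, and a difference was not detectable at this depth.

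miR-339 was the most labelled hairpin of the group. It lies at chr7:1022933-1023026 on the - strand, in intron 2 of 4 of C7orf50, a long intron of 117113 bases, and in an intron of all 7 transcripts that span it. miR-339-3p was at 816, 647, 597 and 621 CPM in Control, at 549, 559, 527 and 527 CPM in DMSO, and at 662, 532, 575 and 523 CPM in PlaB. All Control libraries lay above all DMSO libraries, and how many of the 143 miRNAs did likewise was not counted. The log2 difference of -0.29 ± 0.12 (SE) did not pass over the 143 miRNAs (edgeR, adjusted p = 0.255).

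miR-339-5p was at 331 to 466 CPM in Control, 292 to 451 in DMSO and 356 to 439 in PlaB, of which 20.04% to 44.1% were multi-mapping reads. The 3p arm had 1.22 to 1.87 times the reads of the 5p arm, or 1.60 to 3.26 times among uniquely mapped reads. The ratio averaged 1.70 ± 0.163 in Control and 1.42 ± 0.271 in DMSO (SD, n = 4), a difference that passed only without DMSO replicate 4 (adjusted p = 0.0386, against 0.166 with all libraries).

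In DMSO, miR-339-3p had T>C conversion rates of 1.52%, 1.87%, 1.57% and 1.42%, and miR-339-5p had 0.675%, 0.835%, 0.375% and 0.813%. The 3p arm was higher in 4 of 4 libraries, by 2.37-fold on the means (log2 difference 1.27 ± 0.44 (SE), adjusted p = 0.00562). Here the more abundant arm was the more labelled one, unlike in miR-423. Pooled over the 4 libraries, 182 conversions at 11230 covered T positions gave 1.62% for the 3p arm (95% Wilson interval 1.40% to 1.87%), and 156 at 22457 gave 0.695% for the 5p arm (0.594% to 0.812%). These intervals cover counting error only.

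Per read the arms of miR-339 were not told apart. miR-339-3p has 2 uridines and miR-339-5p has 5, and reads with a conversion made up 2.95% ± 0.383 of miR-339-3p and 3.33% ± 1.04 of miR-339-5p in DMSO (SD, n = 4). With reads in place of T positions the log2 difference of 3p against 5p was -0.14 (adjusted p = 0.761). The call also did not pass with limma on the log2 rates (0.0733) or without DMSO replicates 1 and 2 (0.122). Nearly every labelled read of the 10 members carried a single conversion, with 0.976 to 1.05 conversions per labelled read. The study's filter on mapping identity leaves little room for several mismatches in reads this short. This value was therefore largely set by the processing and does not describe the molecules.

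miR-423 and miR-151a kept their order of arms on both scales. In DMSO, labelled reads were 1.16% ± 0.178 of miR-423-5p and 0.585% ± 0.0955 of miR-423-3p, and 0.926% ± 0.174 of miR-151a-3p and 0.216% ± 0.0579 of miR-151a-5p (SD, n = 4). Both hairpins passed the test with reads as well. For miR-28 the shares were 0.501% ± 0.327 (5p) and 0.606% ± 0.167 (3p), and the arms again did not pass as different.

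**Figure D4:**
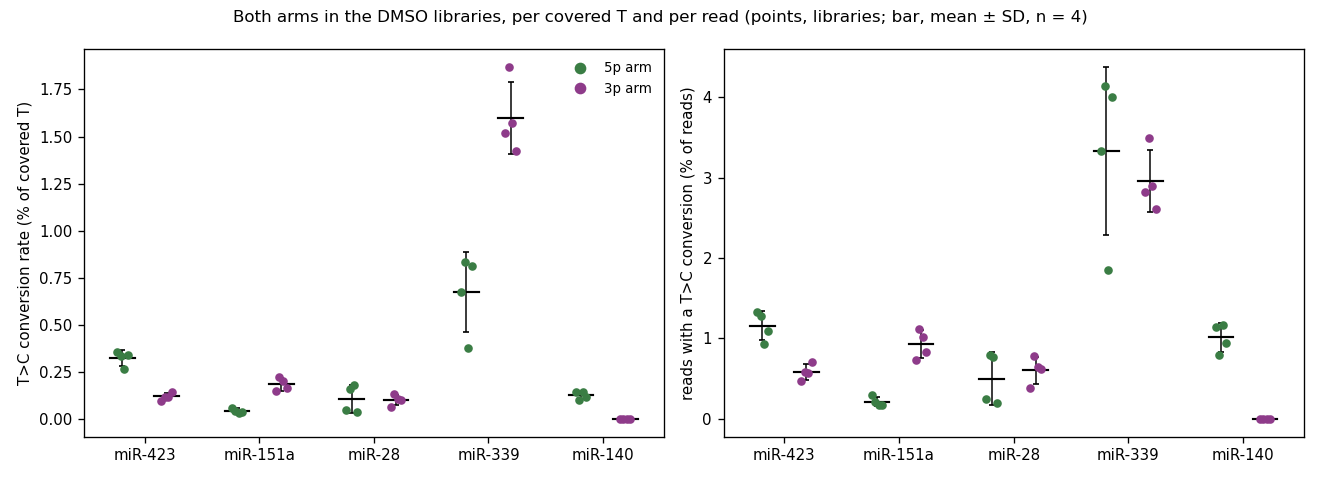
The 5p and 3p arms in the 4 DMSO libraries, as percent of covered T positions with a conversion (left) and as percent of reads with a conversion (right). Points are libraries, and the bar and whisker are the mean and SD. In miR-339 the arms lie apart on the left (0.675% and 1.60%) and overlap on the right (3.33% and 2.95%).

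PlaB left little labelling in miR-339. miR-339-3p had 0.572%, 0.200%, 0% and 0.0523% in PlaB, from 11, 4, 0 and 1 conversions, all below the DMSO libraries. Its log2 difference was -2.91 ± 0.67 (SE, adjusted p = 0.000344), and it passed in all 20 alternatives. miR-339-5p had 0.332%, 0.133%, 0.178% and 0.114%, also all below DMSO, with a log2 difference of -1.83 ± 0.62 (adjusted p = 0.0139). It did not pass without DMSO replicate 2 (0.0518) or without DMSO replicates 1 and 2 (0.170).

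Within PlaB the arms of miR-339 were at similar rates, 0.206% ± 0.258 for 3p and 0.189% ± 0.0990 for 5p (SD, n = 4), and each was ahead in 2 libraries. The log2 difference was -0.03 (95% interval -1.37 to 1.31, adjusted p = 0.993). The arms differed in DMSO and not in PlaB, yet the change itself was not shown to differ between them (log2 difference of the changes -1.31, 95% interval -2.93 to 0.31, adjusted p = 0.350).

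In Control miR-339-3p had 0 conversions at 10050 covered T positions, which allows a rate of up to 0.0299%, and miR-339-5p had 5, 0, 1 and 5 conversions. All Control conversions of the hairpin were thus in the 5p arm, 11 at 15370 positions.

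miR-140 had conversions in 1 arm only. Its hairpin is at chr16:69933081-69933180 on the + strand, in intron 16 of 23 of WWP2, which encodes a ubiquitin ligase, and miR-140 is best known from cartilage. The intron is 2079 bases long, and all 7 transcripts that span the hairpin have it in an intron. miR-140-3p was at 1365 to 1714 CPM in Control, 1238 to 1798 in DMSO and 1359 to 1812 in PlaB, and miR-140-5p was at 434 to 457, 433 to 465 and 366 to 491 CPM. The 3p arm had 2.86 to 4.72 times the reads of the 5p arm, with no multi-mapping reads in the 5p arm and at most 0.0731% in the 3p arm.

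miR-140-5p had T>C conversion rates of 0.144%, 0.0998%, 0.146% and 0.117% in DMSO and of 0.0164%, 0%, 0.0159% and 0% in Control. The mean rose 15.7-fold (log2 difference 3.88 ± 1.13 (SE), adjusted p = 0.00190). miR-140-3p had 0 conversions at 25726 covered T positions in DMSO, which allows up to 0.0117%, 0 at 17770 in Control and 0 at 15741 in PlaB. The limit over Control was 0.0169% when set by 3 conversions and 0.0216% as the upper end of the Wilson interval. The dataset median in Control (0.0178%) lies between these limits, so that the arm was not shown to be below it. Control libraries received no 4SU, so that their limit does not bear on labelling. A rate of 0 in DMSO does not by itself show that the arm was unlabelled. The part of SNP masking in it was not tested. Against a floor of 3 conversions over the 4 libraries, the 5p rate was at least 10.9-fold higher in DMSO (at least 6.45-fold without DMSO replicate 1). In PlaB, 9 of the 11 conversions of miR-140-5p were in replicate 4, and no bound is given.

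The fit of both arms passed in DMSO (adjusted p = 3.68e-05). In PlaB it stood at the threshold (adjusted p = 0.0497) and did not pass in 13 of 17 alternatives. Among these were the replicate block (adjusted p = 1), limma (0.0581), and the fits without PlaB replicate 1 (0.0811), PlaB replicate 2 (0.0802), PlaB replicate 3 (0.0707) and PlaB replicate 4 (0.388). Nor did it pass without Control replicate 3 (0.0519) or 4 (0.0518), without DMSO replicate 1 (0.0638), 2 (0.0650), 3 (0.0653) or 4 (0.0546), and without DMSO replicates 1 and 2 (0.0660).

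In PlaB, miR-140-5p had 0.0167%, 0.0173%, 0% and 0.129%, from 1, 1, 0 and 9 conversions. Replicate 4 was in the range of DMSO and the other 3 libraries lay below all DMSO libraries. The log2 difference against DMSO was -1.52 (95% interval -3.35 to 0.31, adjusted p = 0.165), and it passed without PlaB replicate 4 (-3.27, adjusted p = 0.0246).

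The reads of miR-140-3p covered fewer of its uridines than those of any other member. A read covered 1.34 to 1.39 of the 2 T positions in Control, 1.39 to 1.41 in DMSO and 1.41 to 1.43 in PlaB, or 67.2% to 71.4% of them. In the other members the share was 90.9% or more. The first base of miR-140-3p is a uridine, as is that of miR-339-3p (90.9% to 95.8%), miR-339-5p (93.2% to 99.8%) and miR-423-5p (93.7% to 95.9%). Over the dataset, the 66 miRNAs with a uridine at the first or last base had a median of 99.2%, and the 41 with neither had 99.95%, as a description of the RefSeq sequences that matched.

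Coverage of T positions also moved with the conditions in some members. The 4 DMSO libraries did not overlap the 4 Control libraries in 3 members (miR-423-3p, miR-339-5p and miR-140-3p), which held for 14.7% of the 143 miRNAs. The PlaB libraries did not overlap the DMSO libraries in 2 (both arms of miR-339), which held for 6.29%. In miR-339-3p a read covered 1.85 ± 0.0181 T positions in DMSO and 1.91 ± 0.00807 in PlaB (SD, n = 4), and in miR-339-5p 4.94 ± 0.00931 and 4.97 ± 0.0143. The part of this in the T>C conversion rates of miR-339 was not tested.

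**Figure D5:**
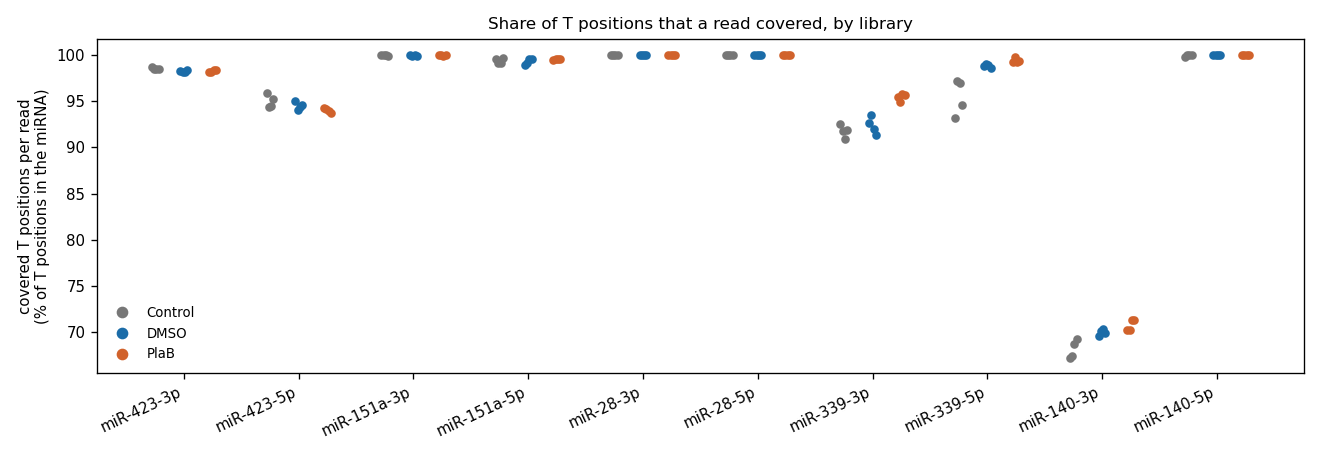
Covered T positions per read as percent of the T positions of the miRNA, in the 12 libraries (points) of the 3 conditions. miR-140-3p lies at 67.2% to 71.4%, the remaining members at 90.9% or more.

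Reads with a conversion, in CPM, give a level of labelled reads rather than a share. In DMSO they were at 91.2 ± 19.97 for miR-423-3p and 20.3 ± 7.12 for miR-423-5p (SD, n = 4), a ratio of 4.49 against 9.18 for all reads. miR-151a-3p was at 42.5 ± 5.68 and miR-151a-5p at 12.2 ± 2.86, a ratio of 3.48, which lies above that of all reads (0.870) and below that of uniquely mapped ones (7.21). For miR-339 the 3p to 5p ratio of labelled reads was 1.23 and for miR-28 it was 0.834, close to those of all reads (1.42 and 0.758). These ratios were not tested.

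Whether the more abundant arm was also the less labelled one in DMSO depended on the scale. Per T position it was in 3 of the 5 hairpins (miR-423, miR-151a and miR-140) and in 11 of the 18 other hairpins with both arms in the dataset. Per read it was in 5 of the 5 by the means, of which the arms of miR-28 and miR-339 did not pass as different, and in 11 of the 18. For miR-151a the order rests on counting multi-mapping reads, since the 3p arm was ahead among unique reads.

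The PlaB/DMSO ratio of the condition means, from which the Control mean is subtracted in both terms, ranged from 0.129 to 0.504 over the 9 members with conversions. The SD beside it is that of the ratios of the 4 experiments, each with its own Control library subtracted. This SD is therefore not centred on the ratio printed. The ratio was lowest in miR-339-3p (0.129 ± 0.170, SD of 4 experiments) and miR-339-5p (0.190 ± 0.208), and highest in miR-28-3p (0.504 ± 0.516). In between were miR-140-5p (0.275 ± 0.552), miR-151a-5p (0.279 ± 0.155), miR-28-5p (0.293 ± 0.215), miR-151a-3p (0.426 ± 0.218), miR-423-3p (0.438 ± 0.0945) and miR-423-5p (0.483 ± 0.431). Neighbours in this order differed by less than the SD over the experiments.

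Of the members, 8 belong to the 43 miRNAs that the study places in introns of protein-coding genes, a list made on these samples and thus no independent evidence. The study kept in it only miRNAs that were labelled above Control and whose mean rate in PlaB was not below that of Control, so that its labelling and its change with PlaB are shaped by that choice. Of the other 35, 18 fell from DMSO to PlaB and 0 rose (median log2 difference -1.17), beside 69 and 0 of all 143. Reads of 0 of the 35 passed in either comparison by edgeR, with unadjusted p under 0.05 for 4 between Control and DMSO and 1 between DMSO and PlaB.

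The hairpins whose rates were most like those of each member were found by the distance between the log2 mean rates of both arms in DMSO and PlaB (4 values, 18 candidates). They were miR-18a for miR-423 (distance 1.06), miR-130b for miR-28 (1.34), miR-374b for miR-151a (1.70), miR-99b for miR-339 (1.98) and miR-122 for miR-140 (2.46). The arms of miR-18a, for example, had 0.172% (5p) and 0.0920% (3p) in DMSO, and those of miR-122 had 0.323% and 0.0312%.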

How the data were processed

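SLAMseq tables of 12 Huh7 libraries (Control, DMSO and PlaB, 4 each) were analysed. The authors trimmed the reads with Trim Galore, mapped them to GRCh38 with the SLAM-DUNK pipeline of nf-core, kept multi-mapping reads, masked SNPs and counted on miRBase mature coordinates. Per table the authors deposited counts (reads, reads with a conversion, conversions, covered T positions, multi-mapping reads), CPM and the conversion rate as a fraction, given here in percent. The deposited CPM and rates were recomputed from the counts and matched.

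DMSO replicates 1 and 2, taken to be the study's DMSO A and B, combine several runs. Conversions were tested in edgeR 4.0.16 (R 4.3.3) by quasi-likelihood with log covered T positions as offset, and reads with TMM factors from all miRNAs, over the Initial miRNA Dataset. Arms were fitted over 23 hairpins with the library as block and an arm-by-condition term. P-values were adjusted by Benjamini-Hochberg with a threshold of 0.05, and SEs are the log2 difference over the square root of F. The scripts were tested on simulated data. Loci are from GENCODE. Zero groups were bounded by 3 conversions.

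The study's methods describe 4 independent experiments, each with all 3 conditions. The replicate numbers were taken to pair the libraries by experiment, a match that the labels do not state. Deviations of log2 CPM from the condition means correlated across miRNAs between same-numbered libraries with a median r of 0.559 to 0.575 and a lowest r of 0.274, against -0.173 to -0.213 between different numbers. For log2 T>C rates the median r was only -0.018 to 0.129 between same numbers, against -0.0819 to 0.000988 between different numbers. The main fits of the members had no block for the experiment. Alternatives were DESeq2 1.42.0, limma 3.58.1, RLE factors, reads with a conversion, other filters, the 8 libraries compared, a replicate block and libraries left out, and, chosen after seeing the data, uniquely mapped reads. Named miRNAs are all 10 members and each hairpin's nearest other hairpin. Members and lists were chosen with earlier results of these data known.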

Additional observations from a re-analysis of the deposited data

Results flagged for a closer look

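In 9 of 100 sets of 4 libraries 1 library stood apart from the other 3. The rule flags about 1 in 20 by chance only where values vary continuously. In several of the flagged sets the other libraries were tied, at 0 or at the full number of T positions, where any deviation is flagged. The count is therefore not set against chance. In Control, miR-140-5p had 457 CPM in replicate 1 against 434 to 437 in the others, miR-151a-3p had a T>C conversion rate of 0.0337% in replicate 1 against 0.00645% to 0.00915%, and miR-28-5p had 0.0109% in replicate 3, from 1 conversion, against 0. In PlaB, miR-140-5p had 0.129% in replicate 4 against 0% to 0.0173%.

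The other 5 concern covered T positions per read and are small. miR-151a-5p was at 4.971 in PlaB replicate 1 against 4.975 to 4.976 in the other PlaB libraries. In Control replicate 2, miR-28-3p was at 5.999 against 6 and miR-28-5p at 4.998 against 5. In DMSO replicate 2, miR-28-5p was at 4.999 against 5 and miR-140-5p at 7.999 against 8.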

How the results depend on the processing

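Of the member counts, 5 members lower in PlaB than in DMSO became 3 without DMSO replicates 1 and 2. The 0 hairpins with a different change of the arms became 1 with limma. That hairpin is miR-140, for which edgeR could not decide because its 3p arm has no conversion. The 0 hairpins with a changed arm ratio of reads from Control to DMSO became 1 with the replicate block. The block by experiment changed 2 further calls, both lost (miR-28-5p in PlaB against Control and the arms of miR-140 in PlaB), and no other. The arm difference of miR-339 in DMSO turned from 1.27 to -0.14 (log2) with reads in place of T positions, whose number differs between the arms. Leaving out 1 library gave 3 to 5 members lower in PlaB than in DMSO, 8 to 9 higher in DMSO than in Control, 4 to 6 different between PlaB and Control, 4 hairpins with different arms in DMSO, 2 to 3 in PlaB, 0 to 2 with a changed arm ratio of reads from Control to DMSO, and 0 for the remaining comparisons. miR-28 and miR-140-5p did not pass filterByExpr for conversions and have no value there. Over 100 CPM without the MirGeneDB mark the same 23 hairpins remained. Where a call was lost, the cause was not tested.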
